A study of Rattus norvegicus with 9 samples.

Results

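The genes described here are protein-coding Vps and Chmp genes of the rat, which encode vacuolar protein sorting factors and charged multivesicular body proteins. They were taken from the gene-level count table as protein-coding entries whose symbol starts with Vps or Chmp followed by a number, a rule that uses no measured value but was chosen with earlier results of these data known. The rule found 42 genes of 37991 in the table, 22640 of which were protein-coding. All 42 passed the filter on low counts, so every member was tested. Genes with such names only in the current RefSeq annotation are not members. Vps35l, Vps26c and Chmp1b2 stand in the table as LOC361635, Dscr3 and RGD1566265, and the RefSeq entry of Vps51 is not in the table. Vps13c is listed there under another biotype.

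The libraries were prepared from medial prefrontal cortex, taken from Wistar Kyoto rats, an inbred strain with depression-like traits, and all were taken on day 15. Rats of the K4 group received a compound known here only by that code, through an intravenous cannula for 7 days, followed by 7 days of withdrawal. Rats of the Ketamine group received ketamine, which blocks NMDA receptors and is used as an antidepressant, under the skin for 7 days, followed by 7 days of withdrawal. Control rats had no treatment, so neither the cannula nor the injections have a counterpart among them, and each group holds 3 libraries. The labels give no dose, vehicle, age or statement that each library is a separate animal, so p-values measure only the spread between these libraries.

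Membrane proteins taken up from the cell surface reach endosomes, where they are either returned or sent on to the lysosome. The ESCRT complexes (endosomal sorting complexes required for transport) gather ubiquitin-tagged cargo and pinch it into vesicles inside the endosome, and the VPS4 ATPases take the ESCRT-III filaments apart again. Retromer and GARP return cargo, the HOPS and CORVET complexes tether endosomes and lysosomes for fusion, and VPS13 proteins are long bridges that carry lipid between membranes. In neurons these routes set how many glutamate receptors and other synaptic proteins are recycled or degraded.

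Total counts ran from 28495399 to 32735785 in K4 libraries, from 27122207 to 33837450 in Ketamine libraries and from 40863756 to 42731004 in Control libraries. The 13 mitochondrially encoded protein genes took 10.4% to 11.4% of counts in K4, 10.6% to 11.8% in Ketamine and 11.6% to 19.0% in Control. Levels are given as CPM (read counts relative to library size, scaled by TMM), and a log2 fold change is called at an adjusted p below 0.05 over all 18047 genes tested with edgeR's quasi-likelihood test. Long transcripts had relatively fewer counts in treated than in Control libraries. Per doubling of transcript length, log2 CPM minus the gene's mean over all libraries changed by 0.00, −0.02 and −0.01 in K4 libraries 1 to 3, by −0.02, −0.07 and −0.06 in Ketamine libraries, and by 0.06, 0.04 and 0.07 in Control libraries. Calls are therefore given from the plain fit and from a second fit in which every library carries an offset for its own trend over length. Values are from the plain fit unless the length offset is named. The summed marker CPM that follow are an exception: they are counts relative to the library total, without TMM scaling. The TMM factors ran from 0.90 in Control library 2 to 1.04 in K4 library 3. The mitochondrial share therefore enters these sums, and they do not settle a difference between groups. Marker calls and log2 fold changes are from the TMM-scaled fits. Markers of cortical excitatory neurons summed to 1202–1235 CPM in K4, 1164–1260 in Ketamine and 840–1201 in Control, with 0 of 4 called in K4 and 1 of 4 called lower in Ketamine, Tbr1, by edgeR. The 5 astrocyte markers summed to 2094–2197 CPM in K4, 1921–2056 in Ketamine and 2197–3233 in Control, and edgeR called 1 of 5 lower in K4 and 4 of 5 lower in Ketamine. The 4 microglial markers summed to 177–186 CPM in K4, 158–166 in Ketamine and 177–245 in Control, with 1 of 4 called lower in K4 and 3 of 4 in Ketamine. The 4 striatal neuron markers summed to 84.6–101 CPM in K4, 81.0–86.9 in Ketamine and 63.0–68.8 in Control, with 2 of 4 called higher in K4 and 1 of 4 in Ketamine. They did not move together: 3 of 4 were positive with K4, at −0.50 to 0.84 on the log2 scale. With ketamine 2 of 4 were positive, at −0.35 to 0.31. The 2 markers of oligodendrocyte precursors summed to 105–122 CPM in K4, 96.2–102 in Ketamine and 120–175 in Control, with 0 of 2 called in K4 and both called lower in Ketamine. Of the 3 endothelial markers 1, Flt1, was called lower with each treatment, of the 3 interneuron markers 1, Gad2, was called lower in Ketamine, of the 5 oligodendrocyte markers 1, Cldn11, was called higher in K4, and of 4 general neuron markers 1, Stmn2, was called higher in Ketamine. In the fit with the offset, edgeR called lower in K4 none of the astrocyte and endothelial markers and 1 microglial marker, and lower in Ketamine 1 astrocyte, 2 microglial, 1 endothelial, 1 interneuron and 1 excitatory marker and no precursor marker. It called higher 1 striatal marker in K4 and none in Ketamine, no oligodendrocyte marker in either, and Stmn2 still in Ketamine. No marker of these lists was at 0 in all 9 libraries. The part that cell makeup plays in the results on sorting genes was not tested, and fewer cells of a type cannot be told apart here from less RNA per cell.

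The sorting genes were broadly expressed, and their levels per transcript length spanned a wide range. By deposited TPM in Control libraries (a unit that corrects for transcript length), the highest level was that of Vps41, a HOPS subunit, with 169 ± 29.2 TPM (SD, n = 3). Next came Vps29 with 103 ± 19.0 TPM and Vps35 with 101 ± 17.9 TPM, both retromer core subunits, Vps4a with 99.3 ± 18.5 TPM and Vps28 with 97.8 ± 14.8 TPM. The spread between Control libraries was larger than the steps between these last 4 genes, so their order is not resolved. At the other end stood Vps13b with 11.5 ± 1.56 TPM and Chmp4c with 0.60 ± 0.11 TPM, the single member below 1 TPM in Control. Groups are compared below by CPM and not by TPM, because the mitochondrial share enters every TPM value.

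**Figure D1:**
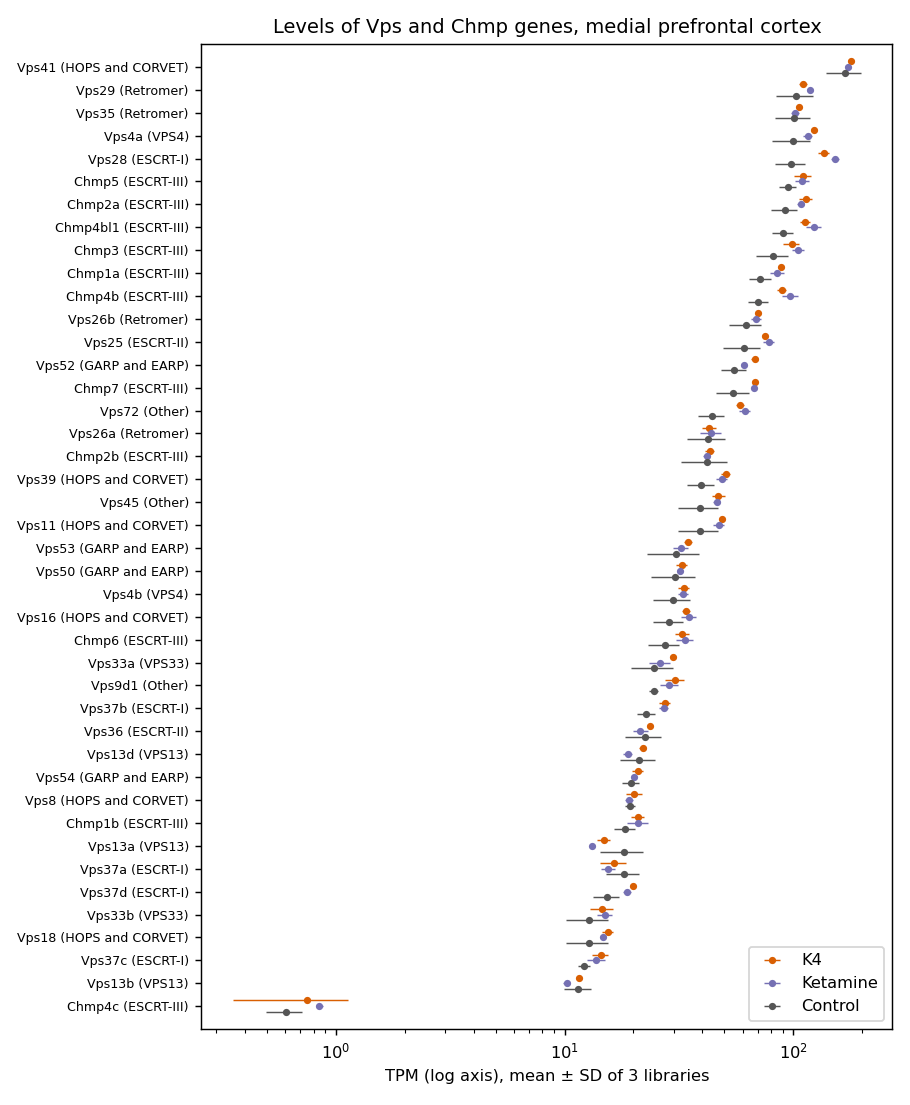
Mean deposited TPM of each Vps and Chmp gene in K4, Ketamine and Control libraries (log axis, n = 3 each; bars are the SD). Vps41 is highest at 169 TPM and Chmp4c lowest at 0.60 TPM in Control.

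With ketamine, 12 of the 42 sorting genes were called (28.6%), against 16.7% of all genes tested, 8 of them higher and 4 lower. Among all genes tested, 6.95% were called higher and 9.75% lower. Both shares depended on single libraries: without Ketamine library 2 they were 19% of the members and 6.39% of all genes, without Ketamine library 3 16.7% and 8.48%, and without Control library 1 19% and 9.84%. Upper quartile scaling changed the balance of all genes called with ketamine to 1587 higher and 1549 lower, against 1254 higher and 1759 lower with TMM, and kept the same 12 members. Limma on the deposited FPKM called 17.1% of the members it tested with ketamine, against 19.6% of all genes it tested. The 8 that rose were Vps28, Vps25, Chmp3, Chmp4b, Chmp4bl1, Chmp7, Vps39 and Vps72, and the 4 that fell were Vps37a, Vps13a, Vps13b and Vps13d. Their log2 fold changes lay between −0.58 and 0.51, and 31 of the 42 members stayed within 0.2 of zero on that scale. The members' median log2 fold change was 0.08, against −0.00 over all genes. In the fit with the length offset only 4 of these 12 were called, Vps28 and Vps39 higher and Vps37a and Vps13a lower, which is 9.52% of the members against 7.6% of all genes, 3.23% higher and 4.37% lower.

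With K4, 2 of the 42 genes were called, Vps28 higher and Vps13a lower. That is 4.76% of the members against 6.07% of all genes tested, 2.27% higher and 3.8% lower, so the share is close to the background. The median log2 fold change of the members was 0.08, against −0.00 over all genes, and 12 members (28.6%) had an unadjusted p below 0.05, where 23.5% of all genes did. The share of all genes called with K4 was 0.946% without Control library 1, 1.3%, 1.88% and 1.24% without K4 libraries 1 to 3, and 3.92% and 3.8% without Ketamine libraries 2 and 3. Upper quartile scaling changed the balance of all genes called with K4 to 527 higher and 563 lower, against 409 higher and 686 lower with TMM, and under it the members called were Vps28, Vps13a and Vps72. In the fit with the length offset neither Vps28 nor Vps13a was called with K4, while Vps39 was called higher. That single call is 2.38% of the members, and 2.38% of all genes were called in the same fit, 1.2% higher and 1.18% lower.

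**Figure D2:**
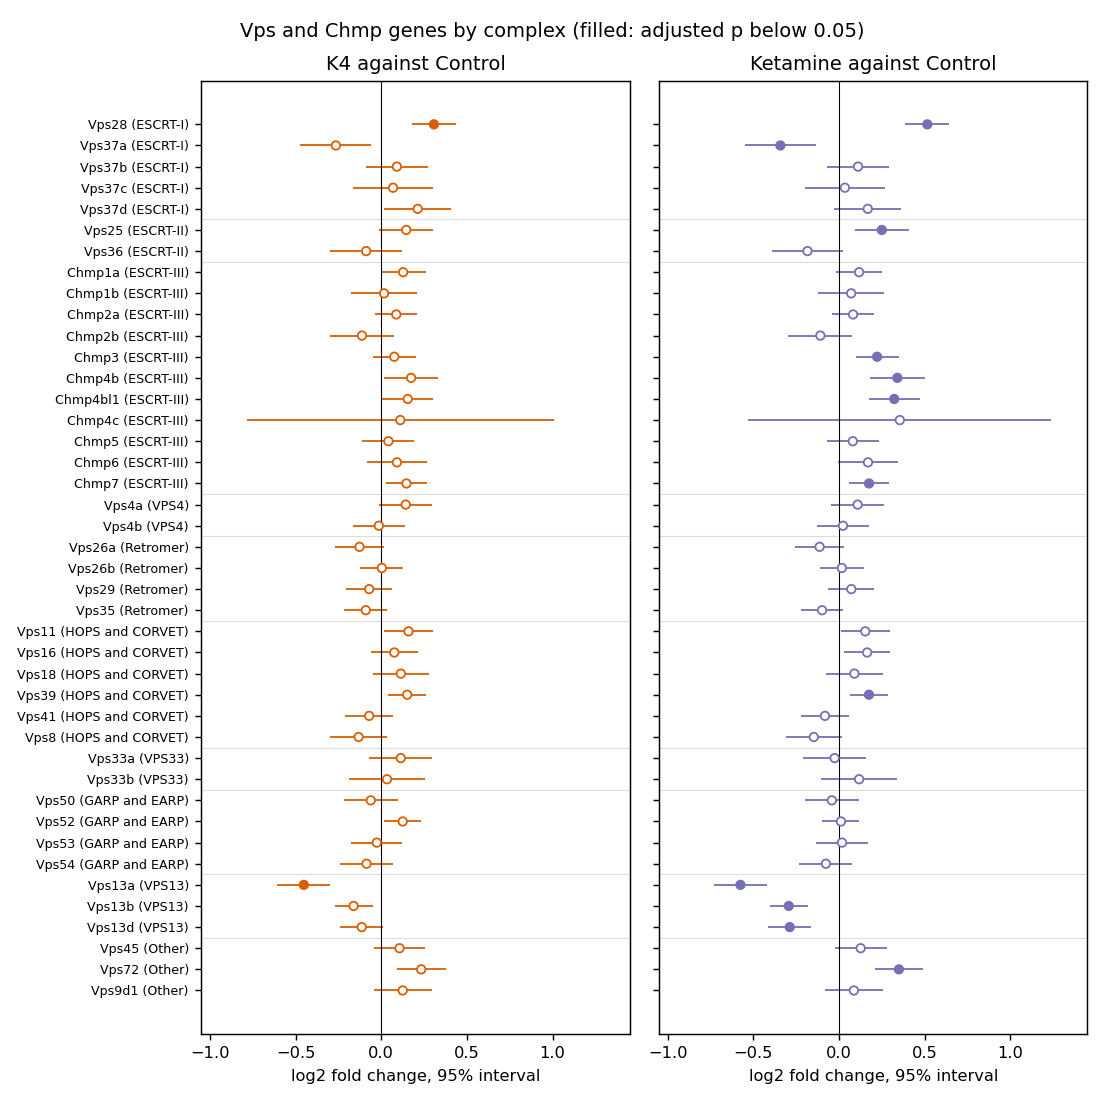
Log2 fold change of the 42 genes in K4 against Control and in Ketamine against Control, grouped by complex, with 95% intervals; filled points have an adjusted p below 0.05. Vps28 and Vps13a are filled in both panels, and Chmp4c, the gene with the fewest counts, has the widest intervals.

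Among the ESCRT-I genes, Vps28 was higher after both treatments and Vps37a was lower after ketamine. Vps28, a core subunit shared by all forms of ESCRT-I, had 66.4, 62.6 and 61.0 CPM in K4 libraries, 70.0, 73.8 and 75.6 CPM in Ketamine libraries and 51.0, 49.5 and 53.1 CPM in Control libraries. No group overlapped another: all Ketamine libraries stood above all K4 libraries, and these above all Control libraries. Its fitted log2 fold change was 0.31 with K4 (SE 0.060, interval 0.18 to 0.44, edgeR adjusted p = 0.014) and 0.51 with ketamine (SE 0.060, interval 0.39 to 0.64, edgeR adjusted p = 0.00038). With the length offset these became 0.21 with K4 (adjusted p = 0.084, edgeR) and 0.35 with ketamine (adjusted p = 0.0056, edgeR). The call with ketamine held whichever of the 9 libraries was left out, in both fits. With K4, Vps28 was not called without K4 library 1 or without Control library 1.

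Vps37a, one of 4 interchangeable VPS37 subunits of ESCRT-I, had 13.5, 13.7 and 15.4 CPM in K4 libraries, 14.6, 12.4 and 13.3 CPM in Ketamine libraries and 17.9, 16.0 and 17.3 CPM in Control libraries. Every treated library was below every Control library. The log2 fold change was −0.34 with ketamine (SE 0.096, edgeR adjusted p = 0.028) and −0.27 with K4 (SE 0.096, edgeR adjusted p = 0.12). With the length offset it lay further from zero, at −0.41 with ketamine (edgeR adjusted p = 0.026) and −0.30 with K4 (edgeR adjusted p = 0.11). The call with ketamine held in 5 of the 9 fits that left out a library and was lost without Control library 1, Control library 3, Ketamine library 2 or Ketamine library 3. Vps37a overlaps Mtmr7 in the GRCr8 annotation and the strand setting of the counts is not known, so some of its counts may belong to that gene. None of the other three VPS37 genes was called: their log2 fold changes were 0.09 (Vps37b), 0.07 (Vps37c) and 0.21 (Vps37d) with K4, and 0.11, 0.03 and 0.17 in the same order with ketamine.

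The ESCRT-II subunit Vps25 had 37.5, 41.9 and 37.9 CPM in K4 libraries, 39.6, 42.9 and 43.7 CPM in Ketamine libraries and 34.3, 33.5 and 38.3 CPM in Control libraries. Ketamine libraries all stood above Control libraries, while K4 and Control overlapped. Compared with Control, the log2 fold change was 0.25 with ketamine (SE 0.074, edgeR adjusted p = 0.035) and 0.15 with K4 (SE 0.074, edgeR adjusted p = 0.25), and under the length offset 0.10 with ketamine (edgeR adjusted p = 0.44) and 0.06 with K4 (edgeR adjusted p = 0.72). Leaving out 1 library at a time kept its call with ketamine in 3 of 9 fits, those without Control library 3, K4 library 2 or Ketamine library 1. Its partner Vps36 had a log2 fold change of −0.09 with K4 and −0.18 with ketamine, neither of them called.

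ESCRT-III, whose CHMP subunits assemble into the filaments that cut the vesicle neck, included called genes with ketamine but not with K4. Of its 11 genes among the members, 4 rose and none fell with ketamine, where 6.95% of all genes rose and 9.75% fell, and the median log2 fold change was 0.17. With K4 none of the 11 was called, 3 had an unadjusted p below 0.05 (23.5% of all genes), and the median was 0.09. Under the offset none was called after either treatment, and 5 of 11 had an unadjusted p below 0.05 with ketamine, where 23.8% of all genes did. Of the 11 genes, 4 are shorter than 1.5 kb, and 2 of those 4, Chmp4b and Chmp4bl1, were among the genes that rose.

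Chmp4b, the main filament-forming subunit, had 51.8, 58.5 and 50.5 CPM in K4 libraries, 54.9, 62.0 and 63.6 CPM in Ketamine libraries and 48.3, 48.1 and 46.2 CPM in Control libraries. Both treated groups stood wholly above Control, and Ketamine library 1 lay within the range of the K4 libraries. The log2 fold change was 0.34 with ketamine (SE 0.074, edgeR adjusted p = 0.0084) and 0.17 with K4 (SE 0.074, edgeR adjusted p = 0.17), and with the length offset 0.21 with ketamine (edgeR adjusted p = 0.076) and 0.10 with K4 (edgeR adjusted p = 0.46). Chmp4bl1, listed as a separate Chmp4b-like gene, had 57.2, 60.2 and 52.1 CPM in K4 libraries, 59.0, 66.6 and 64.8 CPM in Ketamine libraries and 52.2, 50.9 and 49.3 CPM in Control libraries. It had a log2 fold change of 0.32 with ketamine (SE 0.069, edgeR adjusted p = 0.0077) and 0.15 with K4 (SE 0.069, edgeR adjusted p = 0.20), and with the length offset 0.17 with ketamine (edgeR adjusted p = 0.13) and 0.06 with K4 (edgeR adjusted p = 0.63). Its counts were 1.02 to 1.10 times those of Chmp4b in all 9 libraries. Whether the counting could tell reads of these like-named genes apart is not known, so they may be 1 measurement and not 2.

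Chmp3, a core filament subunit, had 77.7, 79.0 and 81.1 CPM in K4 libraries, 86.3, 84.5 and 92.4 CPM in Ketamine libraries and 79.0, 72.4 and 74.3 CPM in Control libraries. Ketamine libraries were above all K4 and all Control libraries, and K4 overlapped Control. The fitted log2 fold change was 0.22 with ketamine (SE 0.058, edgeR adjusted p = 0.021) and 0.08 with K4 (SE 0.058, edgeR adjusted p = 0.47), and the call with ketamine was lost without Ketamine library 3. Chmp3 under the length offset was at 0.14 with ketamine (edgeR adjusted p = 0.15) and 0.03 with K4 (edgeR adjusted p = 0.82). Chmp7, which also recruits ESCRT-III to the nuclear envelope, had 89.6, 91.1 and 89.1 CPM in K4 libraries, 91.7, 90.5 and 92.9 CPM in Ketamine libraries and 82.3, 76.8 and 84.6 CPM in Control libraries. Treated libraries all stood above Control for Chmp7, with K4 and Ketamine overlapping. Against Control it had a log2 fold change of 0.17 with ketamine (SE 0.055, edgeR adjusted p = 0.044) and 0.15 with K4 (SE 0.055, edgeR adjusted p = 0.13). Chmp7 is near the median length at 3.16 kb and its fold change with ketamine barely moved with the length offset, to 0.18 (edgeR adjusted p = 0.062), but its call held in only 1 of the 9 fits that left out a library, the one without Control library 3.

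The remaining 7 ESCRT-III genes were not called. Chmp2b, in which rare human variants cause frontotemporal dementia, had 26.2 ± 1.23 CPM in K4, 26.3 ± 1.17 CPM in Ketamine and 28.4 ± 3.24 CPM in Control (SD, n = 3 each). Its log2 fold change was −0.11 with each treatment. The others with appreciable counts, Chmp1a, Chmp1b, Chmp2a, Chmp5 and Chmp6, had log2 fold changes of 0.02 to 0.13 with K4 and 0.07 to 0.17 with ketamine. Chmp4c was near the limit of detection at 0.58 ± 0.29 CPM in K4, 0.68 ± 0.034 CPM in Ketamine and 0.53 ± 0.063 CPM in Control, and its interval of −0.53 to 1.24 with ketamine leaves a wide range of changes undetectable at this depth. Neither VPS4 ATPase was called: Vps4a had 80.5, 90.0 and 78.8 CPM in K4 libraries, 83.2, 82.5 and 77.8 CPM in Ketamine libraries and 72.0, 71.4 and 82.5 CPM in Control libraries, with Control library 3 inside the range of the treated ones. Against Control it had a log2 fold change of 0.14 with K4 (SE 0.072, edgeR adjusted p = 0.25) and 0.11 with ketamine (SE 0.072, edgeR adjusted p = 0.34), and that of Vps4b was −0.01 with K4 and 0.02 with ketamine.

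**Figure D3:**
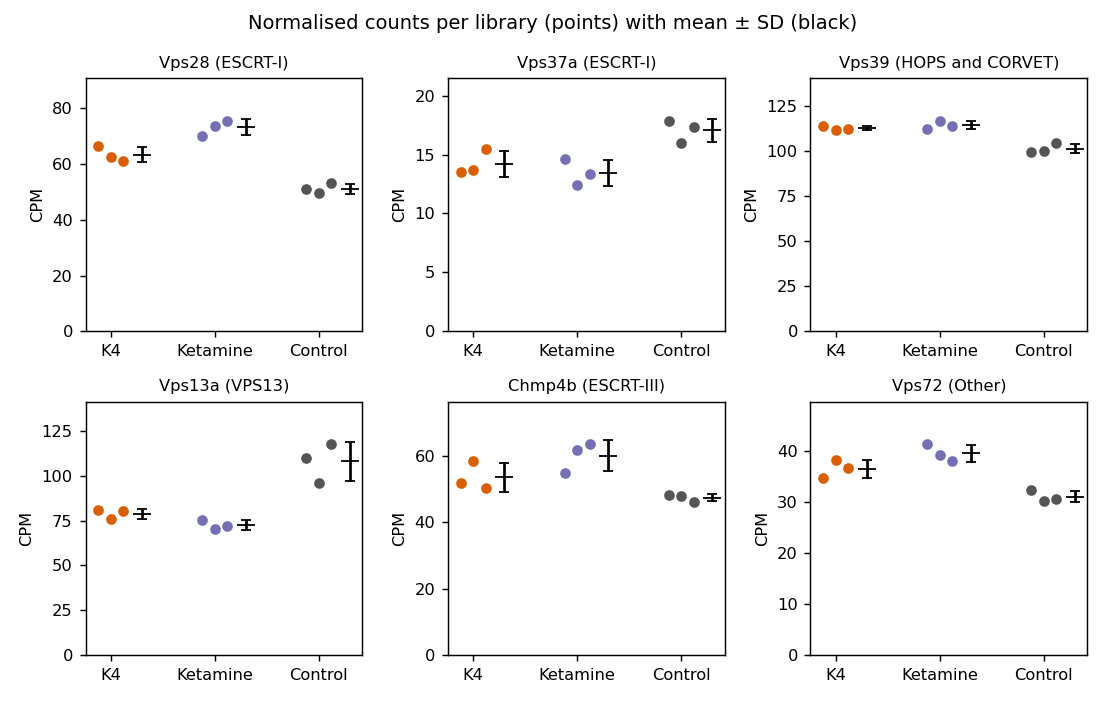
CPM of each library (points) for 6 of the genes called with ketamine, Vps28, Vps37a, Vps39, Vps13a, Chmp4b and Vps72, with the group mean and SD in black (n = 3); K4, Ketamine and Control run from left to right. In each panel the 3 Ketamine libraries lie wholly above or wholly below the 3 Control libraries. The genes were picked from those called on these same libraries, so this separation is no further evidence.

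Retromer, which returns receptors from endosomes, had no called gene after either treatment. Vps35, the scaffold of the complex and a gene linked to inherited Parkinson's disease in humans, had 162 ± 1.53 CPM in K4, 161 ± 3.31 CPM in Ketamine and 172 ± 10.7 CPM in Control. Its log2 fold change was −0.09 with K4 (interval −0.22 to 0.03) and −0.10 with ketamine (interval −0.22 to 0.02). Vps26a, a cargo-binding arm of the complex, had the smallest p of the 4, with 39.8, 43.0 and 43.3 CPM in K4 libraries, 40.9, 44.3 and 42.0 CPM in Ketamine libraries and 48.0, 43.2 and 46.4 CPM in Control libraries. Control library 2 lay among the treated libraries. The log2 fold change of Vps26a was −0.13 with K4 (SE 0.066, edgeR adjusted p = 0.26) and −0.11 with ketamine (SE 0.066, edgeR adjusted p = 0.26). Vps26b was within 0.02 of zero after both treatments, and Vps29 had −0.07 with K4 and 0.07 with ketamine. With the length offset and K4, Vps29 was at −0.16 (edgeR adjusted p = 0.19) and Vps26a at −0.15 (edgeR adjusted p = 0.21). These 2 of 4 had an unadjusted p below 0.05, where 19.6% of all genes did. With the offset and ketamine 1 of 4 did, where 23.8% of all genes did. Then 1 of 4 was positive, against 2 of 4 in the plain fit.

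The HOPS and CORVET tethers are grouped here as 6 genes, with Vps33a, also a subunit of both, given below beside Vps33b. Of the 6, Vps39 alone was called with all 9 libraries. Vps39, a HOPS subunit that helps dock the complex on late endosomes and lysosomes, had 114, 112 and 112 CPM in K4 libraries, 112, 117 and 114 CPM in Ketamine libraries and 99.4, 99.9 and 104 CPM in Control libraries. Treated libraries all stood above Control, and K4 and Ketamine overlapped. The log2 fold change was 0.15 with K4 (SE 0.051, edgeR adjusted p = 0.098) and 0.17 with ketamine (SE 0.051, edgeR adjusted p = 0.035). Vps39 is 5.36 kb long, and genes of that length tended to be lower after treatment, so with the length offset its log2 fold change became 0.23 with K4 (edgeR adjusted p = 0.042) and 0.30 with ketamine (edgeR adjusted p = 0.0061). Under the offset, the call with ketamine held in all 9 fits that left out a library and the call with K4 in 2 of 9, those without Control library 2 or 3. In the plain fit the call with ketamine held in 3 of 9, those without Control library 2, Control library 3 or K4 library 2. In the GRCr8 annotation a ribosomal protein pseudogene, Rps25-ps11, lies within the span of Vps39.

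The other tether genes were not called with all 9 libraries. Vps11 had a log2 fold change of 0.16 with K4 and 0.15 with ketamine, and Vps16 of 0.08 with K4 and 0.16 with ketamine, all with edgeR adjusted p between 0.091 and 0.50. In the plain fit without Control library 3, Vps11 was called with both treatments and Vps16 with ketamine. Vps41 had 247 ± 15.2 CPM in K4, 245 ± 4.79 CPM in Ketamine and 259 ± 15.4 CPM in Control. Vps18 had log2 fold changes of 0.11 with K4 and 0.09 with ketamine, and Vps8, a CORVET subunit, of −0.13 with K4 and −0.15 with ketamine. The SM proteins Vps33a and Vps33b, which guide SNARE assembly, were not called either. Vps33a had 27.6, 27.5 and 27.4 CPM in K4 libraries, 24.4, 27.4 and 23.2 CPM in Ketamine libraries and 24.9, 23.3 and 28.0 CPM in Control libraries, a log2 fold change of 0.11 with K4 (SE 0.085, edgeR adjusted p = 0.46). Vps33b had 19.1, 17.0 and 15.5 CPM in K4 libraries, 16.9, 19.2 and 18.6 CPM in Ketamine libraries and 17.3, 15.0 and 18.0 CPM in Control libraries, a log2 fold change of 0.12 with ketamine (SE 0.10, edgeR adjusted p = 0.47). The groups overlapped for both against Control.

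The 4 genes of GARP and EARP among the members gave no call. These complexes are tethers that bring vesicles from endosomes to the Golgi or to recycling endosomes. Vps52, shared by both complexes, had 104, 106 and 105 CPM in K4 libraries, 98.2, 97.2 and 95.4 CPM in Ketamine libraries and 95, 95.5 and 98.0 CPM in Control libraries. The K4 libraries were above all others, whereas Ketamine and Control overlapped. The log2 fold change of Vps52 was 0.12 with K4 (SE 0.050, edgeR adjusted p = 0.15) and 0.01 with ketamine (SE 0.050, edgeR adjusted p = 0.91). Vps54, the subunit specific to GARP, had 38.8, 41.0 and 42.8 CPM in K4 libraries, 40.9, 39.7 and 42.8 CPM in Ketamine libraries and 45.7, 45.1 and 39.4 CPM in Control libraries. Control library 3 lay within the treated range for Vps54. Against Control it had a log2 fold change of −0.09 with K4 (SE 0.072, edgeR adjusted p = 0.51) and −0.08 with ketamine (SE 0.072, edgeR adjusted p = 0.50). Vps50 and Vps53 had log2 fold changes of −0.06 and −0.03 with K4, and of −0.04 and 0.02 with ketamine.

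All 3 VPS13 genes fell with ketamine, and Vps13a also fell with K4. Vps13a, whose loss in humans causes chorea-acanthocytosis, had 81.0, 75.8 and 80.1 CPM in K4 libraries, 75.4, 70.2 and 71.8 CPM in Ketamine libraries and 110, 96.2 and 118 CPM in Control libraries. All 6 treated libraries were below the lowest Control library, and all Ketamine libraries below all K4 libraries. Its fitted log2 fold change was −0.45 with K4 (SE 0.072, interval −0.61 to −0.30, edgeR adjusted p = 0.0065) and −0.58 with ketamine (SE 0.072, interval −0.73 to −0.42, edgeR adjusted p = 0.00054). Both calls held whichever library was left out. Limma did not call it with K4, on deposited FPKM without TMM scaling, which the mitochondrial share enters as it does TPM. With the length offset the values were −0.26 with K4 (edgeR adjusted p = 0.055) and −0.28 with ketamine (edgeR adjusted p = 0.022), and the call with ketamine was then lost without Control library 1 or without any 1 of the Ketamine libraries.

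Vps13b, the Cohen syndrome gene in humans, had 71.2, 72.4 and 72.1 CPM in K4 libraries, 65.4, 66.9 and 64.5 CPM in Ketamine libraries and 80.5, 78.9 and 82.0 CPM in Control libraries. The 3 groups did not overlap, with Ketamine lowest and K4 between Ketamine and Control. The log2 fold change was −0.16 with K4 (SE 0.051, edgeR adjusted p = 0.079) and −0.29 with ketamine (SE 0.051, edgeR adjusted p = 0.0028). Vps13d, a VPS13 protein tied to mitochondrial shape and clearance, had 149, 148 and 144 CPM in K4 libraries, 132, 132 and 127 CPM in Ketamine libraries and 155, 151 and 170 CPM in Control libraries, again in the order Ketamine, K4, Control from low to high with no overlap. Its log2 fold change was −0.11 with K4 (SE 0.058, edgeR adjusted p = 0.26) and −0.29 with ketamine (SE 0.058, edgeR adjusted p = 0.0059). Under the offset the log2 fold changes with ketamine were 0.04 for Vps13b (edgeR adjusted p = 0.77) and 0.05 for Vps13d (edgeR adjusted p = 0.63), so neither the call nor the direction held. The direction with K4 turned as well, to 0.05 for Vps13b (edgeR adjusted p = 0.67) and 0.11 for Vps13d (edgeR adjusted p = 0.33). Offset CPM of Vps13b was 71.2, 75.8 and 73.7 in K4 libraries, 67.9, 76.8 and 73.5 in Ketamine libraries and 70.9, 70.9 and 71.1 in Control libraries, so that K4 was above Control and the order of the plain CPM was lost. The fourth gene of the family, Vps13c, is listed in the table as misc_RNA and so is not a member: it had 104 ± 4.26 CPM in K4, 92.1 ± 10.9 CPM in Ketamine and 132 ± 9.70 CPM in Control. Against Control it had a log2 fold change of −0.34 with K4 (edgeR adjusted p = 0.033) and −0.52 with ketamine (edgeR adjusted p = 0.0018), and −0.14 and −0.21 in the same order with the length offset, neither of them called.

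Of the 3 remaining members, Vps72 rose with ketamine. Vps72 carries a Vps name from yeast genetics, but its mammalian product is a nuclear subunit of the complexes that load histone H2A.Z into chromatin. It had 34.6, 38.1 and 36.5 CPM in K4 libraries, 41.2, 39.1 and 38.0 CPM in Ketamine libraries and 32.3, 30.2 and 30.5 CPM in Control libraries. Every treated library stood above every Control library. Compared with Control, the log2 fold change was 0.35 with ketamine (SE 0.066, edgeR adjusted p = 0.0040) and 0.23 with K4 (SE 0.066, edgeR adjusted p = 0.054), and with the length offset 0.23 with ketamine (edgeR adjusted p = 0.055) and 0.16 with K4 (edgeR adjusted p = 0.21). Vps45, the SM protein of endosomal SNAREs, had log2 fold changes of 0.11 with K4 and 0.13 with ketamine, and Vps9d1 of 0.13 with K4 and 0.09 with ketamine, with none of these called.

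Fold changes ran with transcript length among all genes. The shortest and the longest members had medians of the same sign as all genes of their length. Lengths implied by the deposited counts and FPKM ran from 1.11 to 16.0 kb among the members, with a median of 2.85 kb, against 2.93 kb for all genes tested. Among all genes, the shortest decile had a median log2 fold change of 0.13 with K4 and 0.21 with ketamine, and the longest decile of −0.15 with K4 and −0.23 with ketamine. The 9 members under 1.5 kb had a median of 0.15 with K4 and 0.25 with ketamine, where all 3125 genes under 1.5 kb had 0.11 and 0.18 in the same order. Of those 9 members, 5 rose with ketamine, namely Vps28, Vps25, Chmp4b, Chmp4bl1 and Vps72, of which Chmp4b and Chmp4bl1 may be 1 measurement. Of all 3125 genes of that length, 18.9% were called with ketamine, 528 higher and 64 lower. The 3 members over 10 kb are the VPS13 genes, and of all 550 genes over 10 kb, 259 fell with ketamine and the median log2 fold change was −0.29. Vps13b at −0.29 and Vps13d at −0.29 are thus at that median, and Vps13a at −0.58 is below it. The 30 members between 1.5 and 10 kb had a median of 0.08 with K4 and 0.08 with ketamine. All 14372 genes of that length had −0.02 and −0.03 in the same order, on the other side of zero.

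**Figure D4:**
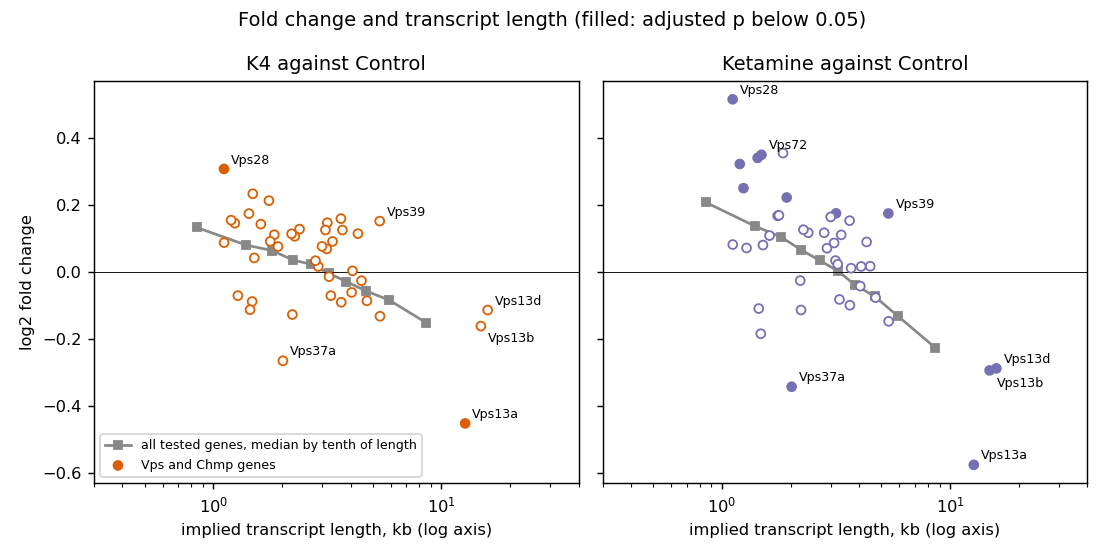
Log2 fold change of each member against implied transcript length (log axis, kb), with the median of all tested genes in each decile of length as grey squares; filled points have an adjusted p below 0.05. Vps28 lies above the grey line, Vps37a and Vps13a below it, and Vps13b and Vps13d near its end in the ketamine panel.

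Set against the median of its own length decile, Vps28 was 0.17 higher on the log2 scale with K4 and 0.31 higher with ketamine. Vps39 was 0.24 higher with K4 and 0.31 higher with ketamine by the same measure. Vps37a was at −0.30 with K4 and −0.41 with ketamine relative to its decile, and Vps13a at −0.30 with K4 and −0.35 with ketamine. These 4 genes are those called with ketamine in the fit with the length offset. Vps36 stood at −0.32 and Chmp2b at −0.25 relative to their decile with ketamine, and with the offset edgeR gave Vps36 −0.31 (adjusted p = 0.072) and Chmp2b −0.24 (adjusted p = 0.12), neither of them called.

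**Figure D5:**
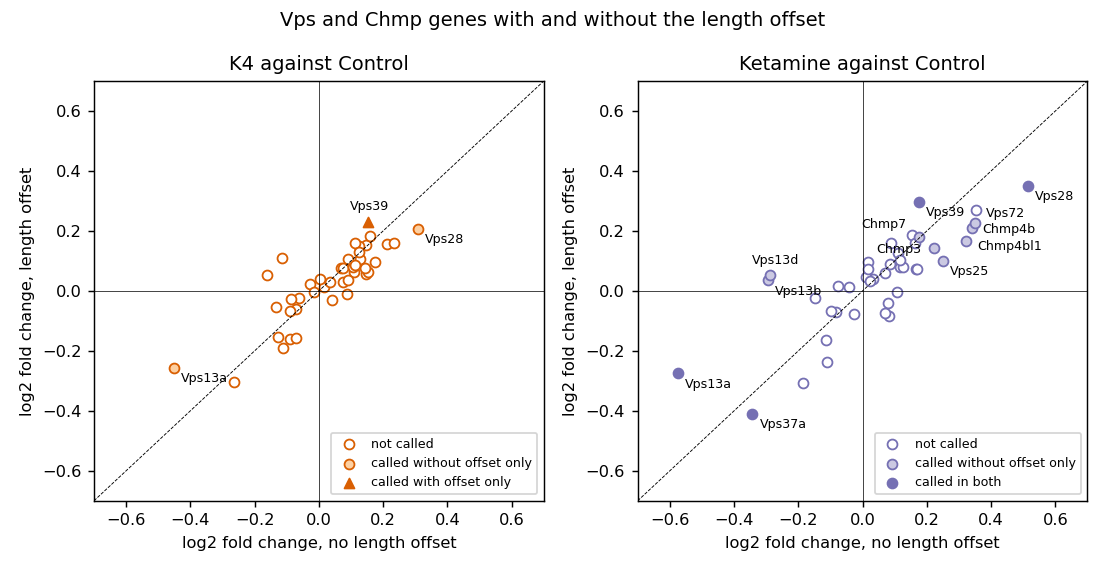
Log2 fold change of each member without the length offset (horizontal axis) and with it (vertical axis) for K4 and Ketamine against Control; the dashed line marks equal values. With ketamine Vps13b and Vps13d move to just above zero, while Vps28, Vps39, Vps37a and Vps13a remain called.

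In K4 against Ketamine no member was called, and neither was any of the 18047 genes (0% called) by edgeR. At an unadjusted p below 0.05 there were 8 of the 42 members and 1648 genes, which is 9.13% of all genes. DESeq2 called 70 genes, none of them a member. Vps28 had the smallest p, with a log2 fold change of −0.21 (interval −0.34 to −0.08, edgeR adjusted p = 0.34). All 3 VPS13 genes were on the positive side, at 0.12 for Vps13a (interval −0.03 to 0.28), 0.13 for Vps13b (interval 0.02 to 0.24) and 0.17 for Vps13d (interval 0.05 to 0.30). So were 441 of all 550 genes over 10 kb, which had a median log2 fold change of 0.10. Outside Chmp4c, the 95% intervals of all members lay between −0.34 and 0.32. The comparisons of K4 and of Ketamine with Control share the same 3 Control libraries, and K4 and ketamine also differed in route. With the length offset no member and no gene was called (0%). In that fit 1 member had an unadjusted p below 0.05, again Vps28 at −0.14, where 7.54% of all genes did. The 3 VPS13 genes were then at 0.02 to 0.06, with a smallest unadjusted p of 0.36 by edgeR.

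The partners of these proteins that carry other names were read from the same fit, as 8 lists with 66 genes, 65 of them tested. With ketamine 9 were called (13.8%, against 16.7% of all genes), 5 higher and 4 lower, and with K4 2 were called (3.08%, against 6.07%). None of the 3 ESCRT-0 genes, the 5 partners of ESCRT-I and II (among them Tsg101, the cargo-binding subunit that pairs with Vps28), the 12 ESCRT-III associated genes or the 7 genes around the VPS34 lipid kinase was called after either treatment. The 5 partners of ESCRT-I and II had a median log2 fold change of 0.01 with K4 and 0.05 with ketamine.

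Among the 15 retromer partners, 3 fell and 1 rose with ketamine. The strumpellin gene of the WASH complex, listed in the table as RGD1564420, had 53.0 ± 2.01 CPM in K4, 50.9 ± 3.34 CPM in Ketamine and 64.8 ± 0.11 CPM in Control. It fell by 0.29 on the log2 scale with K4 (SE 0.062, edgeR adjusted p = 0.020) and by 0.35 with ketamine (SE 0.062, edgeR adjusted p = 0.0030), and with the length offset by 0.25 with ketamine (edgeR adjusted p = 0.021). Tbc1d5, a Rab7 regulator bound by retromer, fell by 0.29 with ketamine (edgeR adjusted p = 0.0049), and Snx27, which links retromer to receptor recycling, fell by 0.27 (edgeR adjusted p = 0.043). Snx17, a cargo adaptor of the retriever route, rose by 0.21 (edgeR adjusted p = 0.040). None of these last 3 was called with the length offset.

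Among the 13 genes of the Commander complex, which carries cargo of the retriever route, Commd7 rose after both treatments. It had 16.3 ± 0.78 CPM in K4, 17.2 ± 0.16 CPM in Ketamine and 13.1 ± 0.60 CPM in Control, a log2 fold change of 0.31 with K4 (edgeR adjusted p = 0.043) and 0.39 with ketamine (edgeR adjusted p = 0.0075). Commd3 rose by 0.22 with ketamine (edgeR adjusted p = 0.042). Both are close to 1.1 kb long, and neither was called with the length offset. Of the 10 tested tethering partners, the early endosome tether Eea1 fell by 0.41 with ketamine (SE 0.091, edgeR adjusted p = 0.0097) and by 0.31 with the length offset (edgeR adjusted p = 0.048). The lysosomal GTPase Arl8a rose by 0.21 (edgeR adjusted p = 0.019) and Tssc1, the EARP-interacting gene now called Eipr1, by 0.30 (edgeR adjusted p = 0.027), and with the length offset neither was called. Under the offset Rubcn, a negative regulator of the VPS34 kinase, was called higher with ketamine at 0.22 (edgeR adjusted p = 0.032), although its CPM in the plain scaling overlapped between Ketamine and Control.

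Promoter sequence was looked at for what the members share outside the counts. RefSeq sequence of GRCr8 covering the 250 bases before the annotated start was matched by symbol or gene ID for 33 of the 42 members, with 34 promoters. The palindrome CACGTG, the core of the sites bound by TFEB and related lysosomal regulators as well as by other factors, was present in 6 of the 34 (17.6%). Among all 33469 promoters of the same length the share was 5.59%, but that background was not limited to protein-coding genes as the members are. The 6 genes are Vps16, Vps50, Vps11, Vps37b, Vps33a and Vps26a. None of the 6 was called in any comparison by edgeR on all 9 libraries, with or without the length offset. In the plain fit without Control library 3, Vps11 was called with both treatments and Vps16 with ketamine. The members' promoters had a median GC content of 59.4%, against 51.2% over all promoters, which bears on how often such a word occurs, and a match is a description of sequence only. Vps33a and Vps26a hold the word at 2 places each. Vps33a, shown as the example, carries it 46 and 30 bases before the start (chr12:38685274-38685523, plus strand, matches in capitals). Vps39 and Vps13a are shown as the matched genes called with ketamine both with and without the length offset (chr3:127758643-127758892 and chr1:223555332-223555581, both on the minus strand), and CACGTG is not in either window.
Vps33a: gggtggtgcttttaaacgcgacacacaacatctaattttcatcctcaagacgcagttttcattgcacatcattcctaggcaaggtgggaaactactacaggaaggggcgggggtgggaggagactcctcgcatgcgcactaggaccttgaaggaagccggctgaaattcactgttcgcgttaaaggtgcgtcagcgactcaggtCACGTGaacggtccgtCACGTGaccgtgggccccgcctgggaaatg
Vps39: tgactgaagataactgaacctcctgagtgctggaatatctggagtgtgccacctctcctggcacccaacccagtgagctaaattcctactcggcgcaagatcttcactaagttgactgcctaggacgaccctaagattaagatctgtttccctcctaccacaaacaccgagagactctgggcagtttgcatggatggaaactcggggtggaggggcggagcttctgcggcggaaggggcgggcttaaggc
Vps13a: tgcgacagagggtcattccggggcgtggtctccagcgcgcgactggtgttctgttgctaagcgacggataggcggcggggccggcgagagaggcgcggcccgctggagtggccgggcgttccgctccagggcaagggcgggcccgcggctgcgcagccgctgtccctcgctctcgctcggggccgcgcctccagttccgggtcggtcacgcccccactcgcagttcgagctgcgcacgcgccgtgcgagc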

How the data were processed

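Per the labels' protocols, total RNA was made into stranded poly(A) libraries. HISAT2 2.1.0, StringTie 2.1.3b, Trimmomatic, bcl2fastq 2.20.0 and the rn6 build are named, without roles, per the submitters' processing notes. The authors deposited raw counts per gene, and per the file headers they also deposited FPKM and TPM per gene. Not given in the sources used here are the counting tool and its strand setting, so counts of overlapping genes are uncertain.

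The counts were tested with edgeR 4.0.16 under R 4.3.3 (robust quasi-likelihood fit of all 9 libraries, TMM, filterByExpr with a minimum count of 10 and total of 15). Benjamini-Hochberg adjustment ran over all 18047 genes tested. Between libraries, the common biological variation amounted to 10.2% of the mean. Transcript length was taken as the count over FPKM and library total, median over libraries. The length offset was each library's lowess curve (span 0.3) of log2 CPM minus the gene mean on log2 length. Because the offset uses the same libraries, it also removes any treatment effect that follows length. Alternatives were DESeq2 1.42.0, other scalings, no filter, limma 3.58.1 on the deposited FPKM, a replicate block and leaving out libraries. The test was checked on simulated counts.

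Members and lists were chosen with earlier results of these data known. Genes given in every library are those called in any comparison and the member with the smallest p of its complex with K4 or ketamine. Gene names and overlaps came from RefSeq GRCr8.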

Additional observations from a re-analysis of the deposited data

How the results depend on the processing

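DESeq2, RLE scaling and upper quartile scaling kept all 14 calls of members against Control, and the first and the last of these added Vps72 with K4. With the length offset, members called were 1 with K4 and 4 with ketamine. Of the 65 partners tested, 11 had an unadjusted p below 0.05 with K4 (edgeR), where 19.6% of all genes did. Partners called were 0 with K4 and 3 with ketamine. Those 3 were 4.62% of the partners tested, against 7.6% of all genes. Limma on the deposited FPKM, with a pseudocount of 0.1 or of 1, called 7 members with ketamine, without Chmp7, Vps13b, Vps13d, Vps37a and Vps39, and with K4 Vps28 and Vps72 but not Vps13a, and 1 partner with K4. It tested genes with a mean FPKM of at least 1, and with ketamine called 17.1% of those members and 19.6% of all those genes. With K4 the shares were 4.88% and 5.22% at a pseudocount of 0.1. At that pseudocount limma moved the balance of all called genes to 505 higher and 208 lower with K4 and 1698 higher and 984 lower with ketamine. The deposited FPKM were not TMM-scaled, so the mitochondrial share enters them. Partners called with K4 were 1 without the count filter and 1 when only the libraries of the pair were fitted. Leaving out each library in turn gave 0.946% to 8.42% of all genes called with K4 and 6.39% to 17.4% with ketamine, 1 to 3 members with K4 and 7 to 13 with ketamine, and 0 to 5 partners with K4 and 3 to 11 with ketamine. No partner was called with K4 without Control library 1 or any 1 of the K4 libraries, 5 were without Control library 2, and 3 or 4 were called with ketamine without Control library 1, Ketamine library 2 or Ketamine library 3. With the length offset as well, chosen after seeing the data, leaving out each library gave 0 to 3 members with K4 and 2 to 6 with ketamine. The share of all genes called in those fits ran from 0.179% to 6.33% with K4 and from 1.61% to 11.5% with ketamine. With ketamine, 7 members were called without Ketamine library 3, and with the offset 2 were called without Control library 1, Ketamine library 2 or Ketamine library 3. Those 2 were 4.76% of the members, against 3.15%, 1.61% and 2.7% of all genes in the same order. Vps13b and Vps13d changed sign with ketamine under the offset, to log2 fold changes of 0.035 and 0.053. With a library left out as well, Vps13b was at 0.083 without Ketamine library 1, 0.028 without Ketamine library 3, 0.036, 0.035 and 0.035 without Control libraries 1 to 3, and 0.035, 0.036 and 0.036 without K4 libraries 1 to 3, and was not positive without Ketamine library 2. Vps13d was then at 0.092, 0.017 and 0.049 without Ketamine libraries 1 to 3, at 0.036, 0.033 and 0.091 without Control libraries 1 to 3, and at 0.053, 0.054 and 0.053 without K4 libraries 1 to 3. The cause of these shifts was not tested.

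Same-numbered libraries of different groups correlated at 0.0024 to 0.11 in their deviations from the group means over 9 pairs, against −0.16 to 0.069 over 18 pairs with different numbers, and 7 of 9 libraries correlated best with their own number. All 9 same-number correlations were thus small but positive, and whether the numbers mark a pairing was not tested. The labels state no pairing, so the plain fit does not pair the libraries. A replicate block kept 2 members with K4 (4.76%, against 6.47% of all genes). It gave 10 with ketamine (23.8%, against 17.7% of all genes), without Chmp7 and Vps39. The replicate block with the length offset gave 1 member with K4 (Vps13a) and 4 with ketamine, 0 and 3 partners in the same order, and 0.034 for Vps13b and 0.052 for Vps13d with ketamine. In that fit 2.38% of the members and 2.75% of all genes were called with K4, and 9.52% and 7.61% with ketamine. The 95% intervals of the members' log2 fold changes reached a median of 0.15 to each side, and a call, adjusted over all genes, needs more than an interval clear of zero. Chmp4c, under 1 CPM, had far wider intervals.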
